A study of Mus musculus with 14 samples.

Results

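The levels of 10 genes of the NRF2 antioxidant pathway were followed in mSCC-38, a mouse cell line grown from a skin squamous cell carcinoma that was raised with the carcinogen DMBA and the promoter TPA. They are Nfe2l2, Gclc, Gclm, Srxn1, Txnrd1, Nqo1, Cbr3, Hmox1, Me1 and G6pdx, taken by their names on the array, and they make up 10 of 34947 gene names and 13 of 55681 probes. The cells were transfected by the lipid reagent RNAimax with an siRNA against the long non-coding transcript AK144841, either Si1AK (4 arrays) or Si2AK (3 arrays), or with a control siRNA named SiC (3 arrays, titled SiC1, NC2 and NC3), and RNA was taken 72 h later. Untransfected cells, named NT (4 arrays), had no time in the labels. All groups share the cell line and the medium, DMEM with glutamine and fetal calf serum, and all RNA entered labelling at 0.2 µg with an integrity number of 9. AK144841 itself was not analysed here, so the knockdown is taken from the labels. Nothing in the labels says that the arrays of a group were grown apart from each other. The p-values therefore reflect the variation among these arrays alone, and that variation may be technical.

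NRF2, the protein of Nfe2l2, is a transcription factor that KEAP1 holds in the cytoplasm and sends to degradation. Oxidants and electrophiles modify KEAP1, NRF2 then builds up, pairs with a small MAF protein and binds antioxidant response elements near genes for glutathione synthesis, thioredoxin, quinone and carbonyl reduction, haem breakdown and NADPH supply. In keratinocytes the pathway is known for protection against chemical carcinogens, and many squamous carcinomas keep it switched on. BACH1 is a repressor that competes for the same elements, and Hmox1 is its best known target.

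The level of a gene is given as log2 of its processed array signal minus the 75th percentile of that array, so 0 is the brightness of the probe at that percentile. Levels of different genes come from different probes and cannot be ranked against each other. Each of the 13 probes was well above background on all 14 arrays and none was saturated. SiC replicate 1 and Si2AK replicate 2 stood apart, with median signals of 270.9 and 107.5 against 23.5 to 58.7 on the other 12 arrays, and with 90.5% and 84.9% of probes well above background against 52.7% to 60.1%. Of the 2, the SiC array is the one titled SiC1. Calls among the 10 genes are given with and without these arrays, and those among other pathway genes where leaving both out ended the call. The arrays lay on 2 slides of 7, and slide 1 held 1 SiC array (replicate 1) while slide 2 held 1 Si2AK array (replicate 3). Of the 11 listed keratinocyte markers, 10 were well above background on every array, Krt5 and Krt14 among them. Cdh1 was so on 2 arrays only, SiC replicate 1 and Si2AK replicate 2.

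For 25.9% of 21186 genes the Si2AK arrays lay wholly above or wholly below the SiC arrays. One probe each of Hmox1, Me1 and Gclm, the members for which every Si2AK array lay above every SiC array, is shown, because its signal is what binds to these letters. Each is written 5′ to 3′ in the sense of the transcript as deposited. The Hmox1 probe A_55_P2029687 lies at chr8:77620797-77620856 of mm9, plus strand, and starts at base 324 of its transcript. The Me1 probe A_55_P2016842 lies at chr9:86480571-86480630 of mm9, minus strand, from base 1729. The Gclm probe A_51_P320089 runs over chr3:121962174-121964809 of mm9, plus strand, from base 670, and its 60 letters span 2636 bases of the genome, so it crosses an intron.
Hmox1: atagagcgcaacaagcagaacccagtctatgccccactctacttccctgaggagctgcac
Me1: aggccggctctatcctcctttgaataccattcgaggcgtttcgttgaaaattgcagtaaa
Gclm: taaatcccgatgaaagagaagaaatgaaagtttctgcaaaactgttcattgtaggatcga

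The letters TGACNNNGC, the core of the antioxidant response element, were searched on both strands of RefSeq promoter windows (GRCm38.p6, 250 bases before to 50 after each start). Of the 10 genes, 8 were in the table. Of these 8, 6 held a match, namely Nfe2l2, Gclm, Srxn1, Txnrd1, Me1 and G6pdx, against 13.99% of all 27025 genes. By window, 6 of 11 held a match, beside 12.39% of all 32851 windows. The members were grouped beforehand as genes of the NRF2 pathway, so these shares describe the choice of genes and are not a result of the arrays. Cbr3 and Nqo1 held no match in these windows. Stretches of the windows of Me1, Gclm and Txnrd1, members called in the comparisons below, are printed with the match in capitals. In Gclm and Txnrd1 the match lies on the opposite strand, so the letters shown are its reverse complement.
Me1, chr9:86695912-86695950, minus strand: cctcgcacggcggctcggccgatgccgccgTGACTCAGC
Gclm, chr3:122245393-122245461, plus strand: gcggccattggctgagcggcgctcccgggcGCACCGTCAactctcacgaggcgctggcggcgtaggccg
Txnrd1, chr10:82859084-82859152, plus strand: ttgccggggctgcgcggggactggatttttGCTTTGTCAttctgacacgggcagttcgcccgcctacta
A match is a run of letters and not a measured site. With the core that has 1 more A at its end, 1 of the 8 genes (Txnrd1) held a match, against 3.45% of all genes.

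Hmox1, the stress-induced haem oxygenase that turns haem into biliverdin, iron and carbon monoxide, had the widest differences of the 10 genes. Its level on the tested probe (A_51_P263965, chr8:77624207-77624266, mm9, plus strand) was 2.86, 2.86, 2.87 and -1.22 on NT replicates 1 to 4. On SiC replicates 1 to 3 it was 2.57, 3.17 and 3.11. It was 3.42, 3.51, 3.41 and 3.49 on the 4 Si1AK arrays and 4.49, 4.49 and 4.52 on the 3 Si2AK arrays. Every Si2AK array lay above every Si1AK array, and every Si1AK array lay above every SiC array. NT replicate 4 lay far below all other arrays of the series.

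The second Hmox1 probe, whose sequence is printed above, gave levels of -0.75, -0.68, -0.79 and -2.70 on the NT arrays. It gave -0.40, -0.51 and -0.48 on the SiC arrays, and -0.14, -0.31, -0.31 and -0.25 on the Si1AK arrays. It gave 0.49, 0.74 and 0.66 on the Si2AK arrays. The order of the groups was the one seen with the first probe, with NT replicate 4 again lowest. On that array Hmox1 was 17.0-fold below the mean of NT replicates 1 to 3 on the first probe (a log2 difference of -4.09, n = 3 for the mean) and 3.89-fold below on the second (-1.96). Before any correction, the first probe read 313 on NT replicate 4 and between 4449 and 6122 on the other NT arrays, with a local background of 20 to 22, and no Hmox1 spot on an NT array carried an outlier mark.

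**Figure D1:**
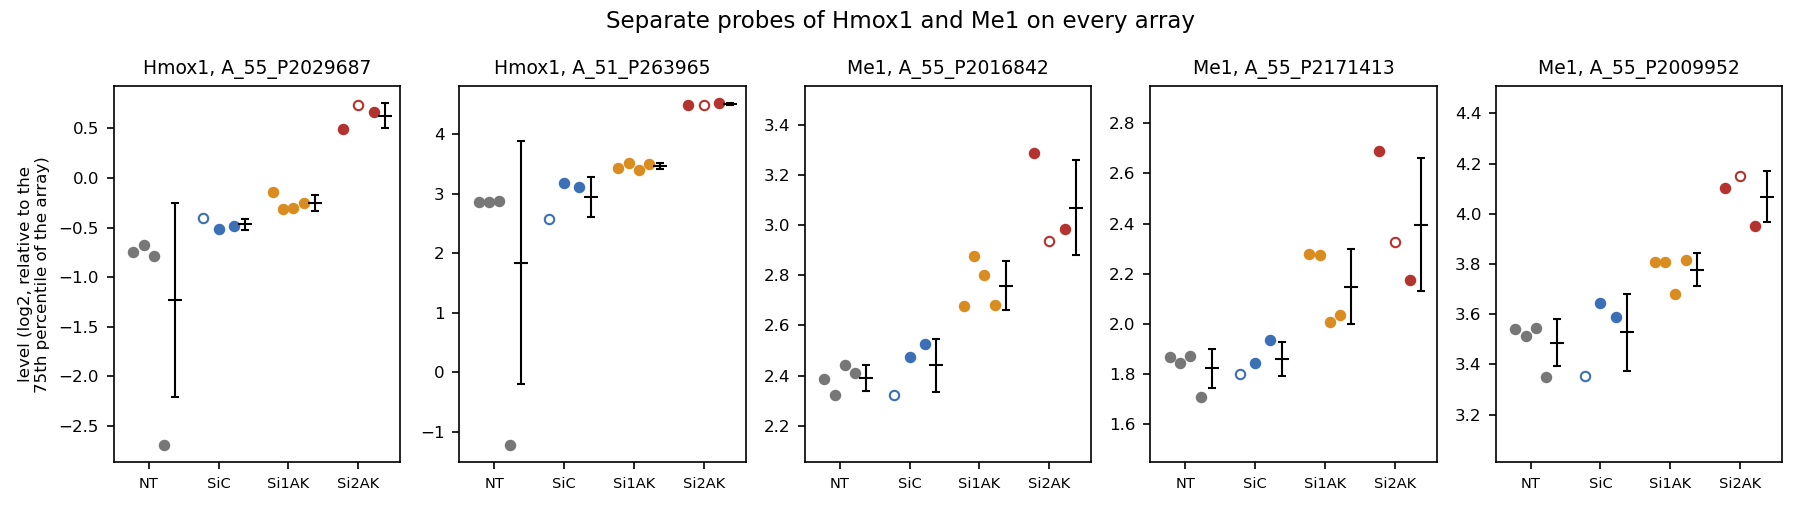
Level (log2 relative to the 75th percentile of the array) of the 2 Hmox1 probes and 3 Me1 probes on each array of NT, SiC, Si1AK and Si2AK. Open points are SiC replicate 1 and Si2AK replicate 2, bars are mean and SD, and the vertical scales differ. Si2AK arrays lay above all others on 4 of the 5 probes and overlapped with Si1AK on Me1 probe A_55_P2171413, and NT replicate 4 was lowest on both Hmox1 probes.

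With all 14 arrays fitted together in limma, Hmox1 was 2.93-fold higher in Si2AK than in SiC, a log2 difference of 1.55 ± 0.86 (SE), and did not pass the threshold (adjusted p = 0.303, Benjamini-Hochberg over 21374 genes). It was 1.42-fold higher in Si1AK than in SiC (0.51 ± 0.81, adjusted p = 0.736) and 2.06-fold higher in Si2AK than in Si1AK (1.04 ± 0.81, adjusted p = 0.488). Only the difference of Si2AK from NT was called, at 2.66 ± 0.81 (adjusted p = 0.0448), and without both arrays of raised signal this was 2.66 ± 0.98 (adjusted p = 0.0874). All 4 groups share 1 estimate of spread per gene in this fit, so the NT arrays enter the error of every comparison. With only the groups compared in the limma fit, Hmox1 was 1.55 ± 0.19 higher in Si2AK than in SiC, not called (adjusted p = 0.0570). In such a fit Si1AK was 0.51 ± 0.16 above SiC, not called (adjusted p = 0.212). Si2AK was 1.04 ± 0.06 above Si1AK and was called (adjusted p = 0.000993).

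NT replicate 4 was singled out by its Hmox1 value, so smaller Hmox1 errors without it follow from that choice. Of the 14 fits that left out 1 array, only the fit without it called Hmox1 in Si2AK against SiC. Without NT replicate 4, Hmox1 was called in 5 of the 6 comparisons at smaller errors. The Si2AK level was then 1.55 ± 0.13 above SiC (adjusted p = 0.000184) and 1.04 ± 0.12 above Si1AK (adjusted p = 0.000502). The Si1AK level was 0.51 ± 0.12 above SiC, close to the threshold (adjusted p = 0.0497). Against the remaining NT arrays, Hmox1 was 1.51-fold higher in Si1AK (0.59, adjusted p = 0.0221) and 3.11-fold higher in Si2AK (1.64, adjusted p = 0.000115). SiC and NT then differed by 0.08 ± 0.13 (adjusted p = 0.845). By group mean the order was NT, SiC, Si1AK and Si2AK. The step from NT to SiC depended on SiC replicate 1: without it, Si2AK replicate 2 and NT replicate 4 the difference was 0.28 ± 0.07, not called (adjusted p = 0.364). On the second probe every SiC array lay above every NT array.

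The 2 arrays of raised signal were left out as well in an alternative added after the data were seen. Without them and without NT replicate 4, Hmox1 was 0.32 ± 0.06 higher in Si1AK than in SiC (adjusted p = 0.0260) and 1.37 ± 0.07 higher in Si2AK than in SiC (adjusted p = 0.000139). Within slide 1, where NT replicate 4 is not present, Hmox1 in Si2AK was 1.02 above Si1AK (adjusted p = 0.0323). There SiC is replicate 1 alone, an array of raised signal, and Si2AK lay 1.93 above it. The adjusted p of 0.0441 for that value assumes that the lone array varies like the other groups. Within slide 2, which holds NT replicate 4 and 1 Si2AK array, Si2AK was 1.38 above SiC and 1.07 above Si1AK and neither was called (adjusted p = 0.745 and 0.802).

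**Figure D2:**
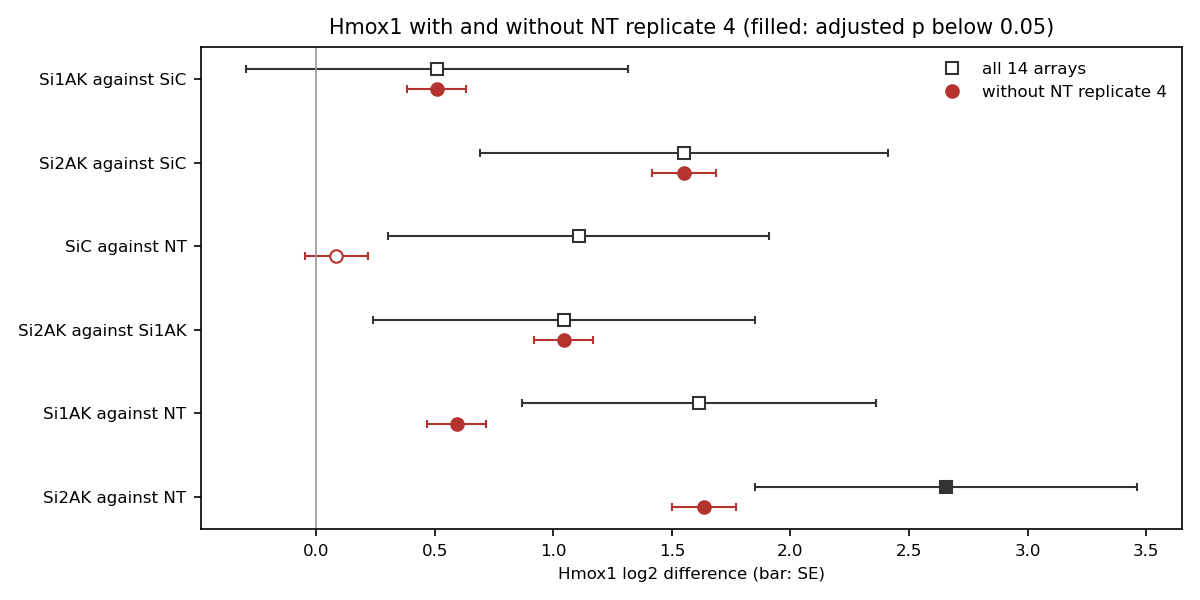
Hmox1 log2 difference with its SE in the 6 comparisons, fitted with all 14 arrays (squares) and without NT replicate 4 (circles), with filled symbols for an adjusted p below 0.05. The Si2AK difference from SiC is 1.55 in both fits, with an SE of 0.86 against 0.13.

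Me1, the cytosolic malic enzyme that makes NADPH from malate, was higher in Si2AK. The tested probe (A_55_P2009952, chr9:86475077-86475136, mm9, minus strand) gave levels of 3.54, 3.51, 3.54 and 3.35 in NT and 3.35, 3.64 and 3.59 in SiC. It gave 3.81, 3.81, 3.68 and 3.82 in Si1AK and 4.10, 4.15 and 3.95 in Si2AK. The Si2AK arrays lay above all other arrays, and the Si1AK arrays lay between them and both control groups without overlap. Me1 rose 1.45-fold in Si2AK against SiC (0.54 ± 0.10, adjusted p = 0.00390) and 1.496-fold against NT (0.58 ± 0.09, adjusted p = 0.00127).

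The differences of Si1AK from SiC (0.25 ± 0.09, adjusted p = 0.155), of Si1AK from NT (0.29 ± 0.08, adjusted p = 0.0596) and of Si2AK from Si1AK (0.29 ± 0.09, adjusted p = 0.0585) did not pass for Me1. The array carries 3 Me1 probes, at bases 1729, 3030 and 3168 of the transcript. With each probe tested on its own, Si2AK exceeded SiC by 0.63, 0.54 and 0.54 in that order (adjusted p = 0.00348, 0.0226 and 0.00545). On the probe at base 3030 the Si2AK arrays (2.17 to 2.69) overlapped with the Si1AK arrays (2.01 to 2.28), and on the other 2 they did not. Without the 2 arrays of raised signal, Me1 was 0.41 ± 0.10 higher in Si2AK than in SiC (adjusted p = 0.0267) and 0.54 ± 0.08 higher than in NT (adjusted p = 0.00210). The Si2AK difference from SiC was 0.77 within slide 1, where SiC is 1 array of raised signal. Within slide 2, which holds 1 Si2AK array, it was 0.34, and neither was called.

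G6pdx, the entry enzyme of the pentose phosphate pathway and the other NADPH source among the 10 genes, was not called in any comparison by limma with all arrays. Its levels ran from 4.97 to 5.27 over the 14 arrays, and its group means were 5.13 ± 0.15 in NT (SD, n = 4), 5.15 ± 0.11 in SiC (n = 3), 5.05 ± 0.10 in Si1AK (n = 4) and 5.19 ± 0.09 in Si2AK (n = 3). The groups overlapped.

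Glutathione synthesis starts with glutamate-cysteine ligase, whose catalytic subunit is Gclc and whose modifier subunit is Gclm. Gclm levels were 1.31, 1.40, 1.18 and 1.14 in NT and 1.13, 1.04 and 1.17 in SiC. They were 1.30, 1.22, 1.03 and 1.16 in Si1AK and 1.50, 1.62 and 1.31 in Si2AK. The Si2AK arrays lay above the SiC and the Si1AK arrays, but overlapped with NT. Gclm rose 1.29-fold in Si2AK against SiC (0.36 ± 0.11, adjusted p = 0.0420). This call was lost without the 2 arrays of raised signal (0.30, adjusted p = 0.173), and Si2AK replicate 2 is the highest of the 3. Within slide 1 the difference was 0.43 (adjusted p = 0.101), and within slide 2 it was 0.21 (adjusted p = 0.452). Against Si1AK the Si2AK difference was 0.30 ± 0.10 (adjusted p = 0.0738).

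Gclc was not called in any comparison. Its levels ran from 2.33 to 2.78 in NT, from 2.36 to 2.56 in SiC, from 2.23 to 2.32 in Si1AK and from 2.09 to 2.43 in Si2AK. The differences from SiC were -0.16 ± 0.11 for Si1AK (adjusted p = 0.441) and -0.20 ± 0.12 for Si2AK (adjusted p = 0.342). Both subunits act in 1 enzyme, and in Si2AK against SiC their differences had opposite signs, one called and one not.

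Txnrd1, the cytosolic thioredoxin reductase that reloads thioredoxin with electrons from NADPH, was lower in Si2AK. Its levels were 4.52, 4.56, 4.49 and 4.46 in NT and 4.22, 4.38 and 4.39 in SiC. They were 4.49, 4.51, 4.39 and 4.35 in Si1AK and 4.21, 4.07 and 4.07 in Si2AK. All Si2AK arrays lay below all others. Txnrd1 fell by 0.32 ± 0.07 on the log2 scale in Si2AK against Si1AK (1.25-fold lower, adjusted p = 0.0148) and by 0.39 ± 0.07 against NT (1.31-fold lower, adjusted p = 0.00421).

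Against SiC the Txnrd1 difference of Si2AK was -0.21 ± 0.08 and was not called (adjusted p = 0.110). It was not called without both arrays of raised signal either (-0.24, adjusted p = 0.122), and it was called in 3 of 28 alternatives, one of them without SiC replicate 1 (-0.27, adjusted p = 0.0498). Without both arrays of raised signal, Txnrd1 in Si2AK differed by -0.30 from Si1AK (adjusted p = 0.0273) and by -0.37 from NT (adjusted p = 0.00880). The difference from Si1AK was -0.36 within slide 1 and -0.30 within slide 2 (adjusted p = 0.158 and 0.204).

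Srxn1, sulfiredoxin, which repairs over-oxidised peroxiredoxins, was not called in any comparison. Its levels ran from 3.86 to 4.08 in NT, from 3.46 to 4.04 in SiC, from 3.57 to 3.96 in Si1AK and from 3.70 to 3.98 in Si2AK, and the groups overlapped. The lowest value of the series was SiC replicate 1, an array of raised signal.

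Cbr3, a carbonyl reductase of the cytosol, was called higher in Si1AK than in SiC and lower in Si2AK than in Si1AK. Its levels were 1.66, 1.82, 1.76 and 1.71 in NT and 1.31, 1.73 and 1.71 in SiC. They were 1.97, 2.21, 1.97 and 1.99 in Si1AK and 1.64, 1.47 and 1.43 in Si2AK. All Si1AK arrays lay above all others. Cbr3 rose 1.37-fold in Si1AK against SiC (0.45 ± 0.11, adjusted p = 0.0440), and was 1.43-fold lower in Si2AK than in Si1AK (-0.52 ± 0.11, adjusted p = 0.00978). The Si2AK difference from SiC was -0.07 ± 0.12 (adjusted p = 0.822). The Si1AK difference from NT was 0.30 ± 0.10 and was not called (adjusted p = 0.117).

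SiC replicate 1, an array of raised signal, was the lowest SiC array for Cbr3. Without it the difference was 0.31 (adjusted p = 0.0988), and without both arrays of raised signal it was also 0.31 (adjusted p = 0.101). The call was lost when any single array of the 14 was left out (adjusted p between 0.0502 and 0.134). Within slide 1 it was 0.78 and within slide 2 it was 0.26 (adjusted p = 0.0771 and 0.267). The gap between the siRNAs was -0.50 without both arrays (adjusted p = 0.00702), -0.53 within slide 1 (adjusted p = 0.153) and -0.55 within slide 2 (adjusted p = 0.0726).

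Nqo1, the quinone reductase that is the usual marker of NRF2 activity, was not called in any comparison. The spot of NT replicate 2 carried an outlier mark and was left out, so the NT mean of 2.36 ± 0.08 (SD) has n = 3. Nqo1 was 2.09 ± 0.24 in SiC (n = 3), 2.16 ± 0.10 in Si1AK (n = 4) and 2.17 ± 0.17 in Si2AK (n = 3). The differences from SiC were 0.07 ± 0.12 for Si1AK (adjusted p = 0.745) and 0.08 ± 0.13 for Si2AK (adjusted p = 0.812). NT was the highest group, with all 3 arrays above every transfected array.

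Nfe2l2, the transcript of NRF2 itself, was not called either. NRF2 is set largely at the level of protein stability, which an array does not measure. Its levels ran from 5.82 to 6.12 in NT, from 5.53 to 5.98 in SiC, from 5.74 to 5.95 in Si1AK and from 5.88 to 6.05 in Si2AK. The differences from SiC were 0.03 ± 0.12 for Si1AK (adjusted p = 0.890) and 0.16 ± 0.13 for Si2AK (adjusted p = 0.532).

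**Figure D3:**
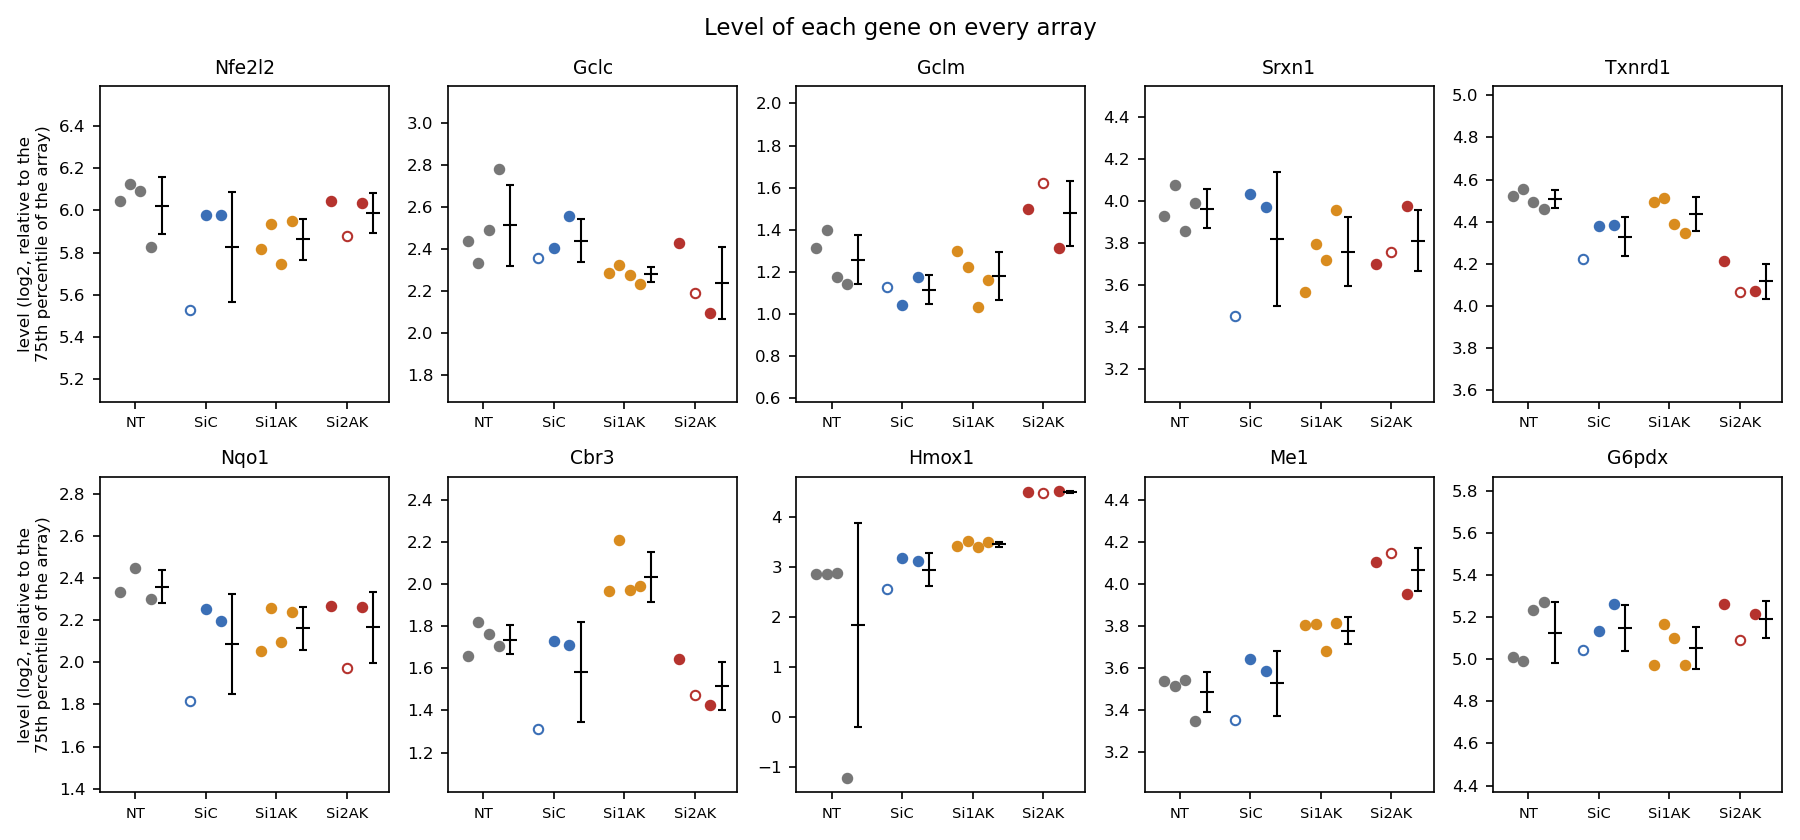
Level (log2 relative to the 75th percentile of the array) of the 10 genes on each array of NT, SiC, Si1AK and Si2AK, with mean and SD as bars. Open points are SiC replicate 1 and Si2AK replicate 2, and the vertical scales differ between genes. Hmox1 and Me1 were highest in Si2AK, Cbr3 in Si1AK, and Txnrd1 was lowest in Si2AK.

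Counted together, 1 of the 10 genes was called in Si1AK against SiC (Cbr3, higher), where 4.41% of all genes tested were called. In Si2AK against SiC 2 were higher (Gclm and Me1), beside 13.2% of all genes, and in Si2AK against Si1AK 2 were lower (Txnrd1 and Cbr3), beside 12.4%. In Si2AK against NT 2 were higher (Hmox1 and Me1) and 1 lower (Txnrd1), beside 15.6%. In Si1AK against NT none of the 10 was called by limma, beside 7.05%, and Gclc, Cbr3 and Me1 had an unadjusted p below 0.05, as had 4545 of all 21374 genes. In SiC against NT none was called and the share over all genes was 0%, while 1586 of 21374 genes had an unadjusted p below 0.05. Shares of 1 or 2 in 10 are near these backgrounds. By arrays without overlap, 3 members lay above and 1 below SiC in each siRNA. Of all genes, 19.5% (Si1AK) and 25.9% (Si2AK) lay wholly above or below SiC. Si2AK lay above Si1AK for 3 members and below for 2, beside 29.4% of all genes. Si2AK lay above NT for 2 and below for 3, beside 26.8%. Si1AK lay above NT for 3 and below for 2, beside 21.3%. SiC lay below NT for 2, beside 5.95%. The median difference of the 10 genes was 0.07 in Si1AK against SiC and 0.06 in Si2AK against SiC, beside medians over all genes of -0.06 and -0.02. The shares over all genes themselves move with the arrays: 942 genes were called in Si1AK against SiC with all arrays, and 461 and 426 without Si1AK replicate 1 or 2. In Si2AK against SiC 2813 were called with all arrays, 1756 without Si2AK replicate 1, and 90 with only those groups in the fit. The comparisons share arrays, SiC in both of those, and are not independent of each other.

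**Figure D4:**
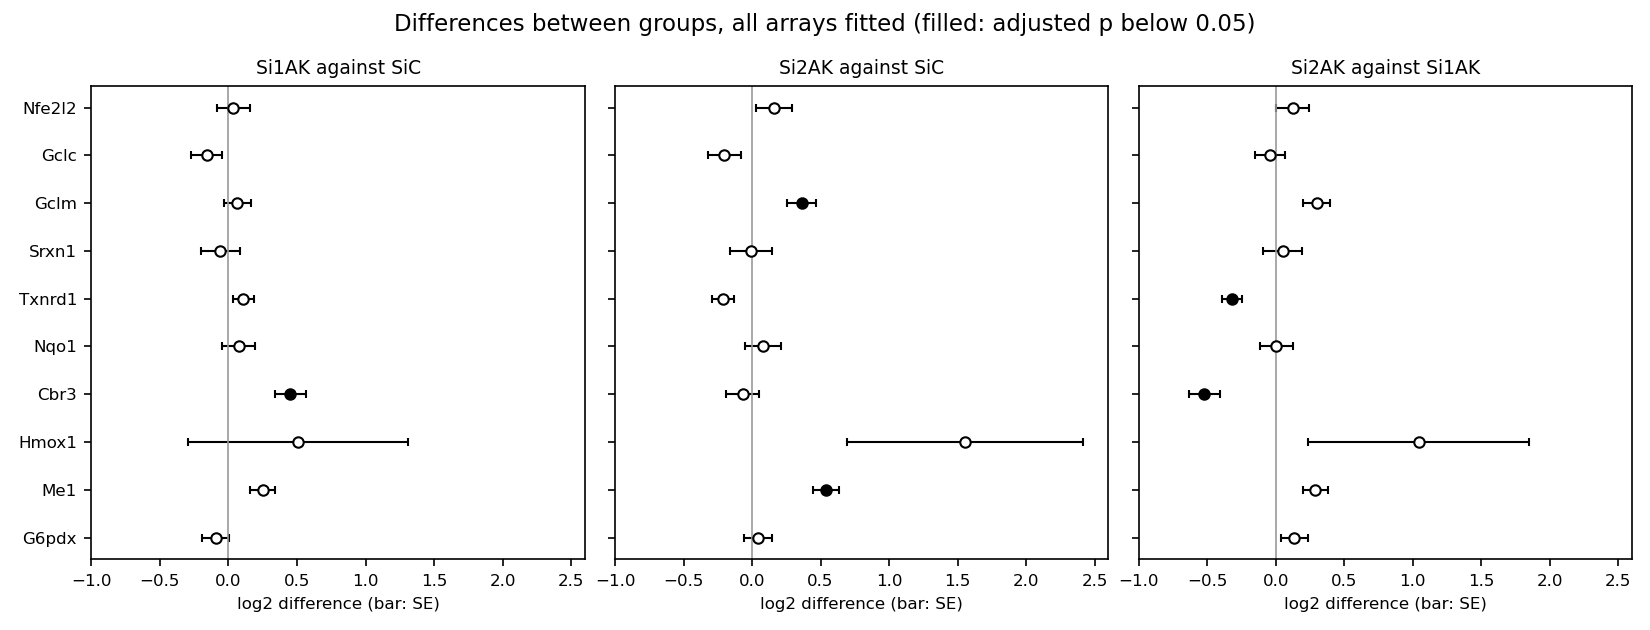
Log2 difference of each gene with its SE in Si1AK against SiC, Si2AK against SiC and Si2AK against Si1AK, all arrays fitted, with filled points for an adjusted p below 0.05. The wide bars of Hmox1 (0.81 to 0.86) come from the fit that holds NT replicate 4.

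Of 70 other genes, listed by role and referred to as pathway genes, 66 were tested. The lists are broad and also hold stress response genes such as Trib3 and Chac1. The lists were chosen with earlier results of these data known, so their shares are a description and no test of the pathway. The genes left untested were Gpx3, Slc40a1, Abcc2 and Abcc3, whose probes did not pass the filter. In Si1AK against SiC 4 rose and 0 fell, 6.06% of the 66 beside 4.41% of all genes, with a median difference of 0.05 beside -0.06. In Si2AK against SiC 12 rose and 3 fell, 22.7% beside 13.2%, with a median of 0.13 beside -0.02. Over all genes 1816 were higher and 997 lower there. Among the 12 were Chac1, Sesn2, Slc3a2, Mthfd2 and Trib3, which are also known targets of the stress response factor ATF4. They were picked from the called genes, and a role of ATF4 was not tested. In Si2AK against Si1AK 10 rose and 4 fell, 21.2% beside 12.4%, with a median of 0.09 beside 0.10. Against NT 12 were higher and 8 lower in Si2AK, 30.3% of the 66 beside 15.6% of all genes. Over all genes 1701 were higher and 1640 lower in that comparison. In Si1AK against NT 3 were higher and 1 lower, 6.06% beside 7.05%. In SiC against NT 0 were called by limma, beside 0% of all genes. Without both arrays of raised signal 4 rose and 2 fell in Si1AK against SiC, with 994 of all genes called. In Si2AK against SiC 9 rose and 4 fell without them, with 2110 of all genes called. In Si2AK against Si1AK 13 rose and 4 fell, with 3203 of all genes called. With all arrays the counts over all genes were 942, 2813 and 2660, in the same order. Under quantile normalization 12 rose and 9 fell in Si2AK against SiC, with 3067 of all genes called. In Si2AK against Si1AK 12 rose and 11 fell under it, with 3078 of all genes called. The role lists hold 4 to 11 tested genes each, so 1 or 2 called genes in a list stand beside the shares of 4.41% and 13.2% over all genes.

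Among 9 regulators of NRF2, 3 rose and 1 fell in Si2AK against SiC (13.2% of all genes were called), and 0 were called in Si1AK against SiC (4.41% of all genes). Maff and Mafk, small MAF proteins that pair with NRF2 or BACH1 on the DNA, rose by 0.77 ± 0.10 (adjusted p = 0.000782) and 0.71 ± 0.09 (adjusted p = 0.000704). Maff was 2.17 ± 0.22 in SiC and 2.94 ± 0.04 in Si2AK (SD, n = 3 each), and both genes also exceeded Si1AK (0.45 and 0.41, adjusted p = 0.00936 and 0.00919). Nfe2l1, the related factor NRF1, rose by 0.77 ± 0.20 (adjusted p = 0.0250), but lost the call without both arrays of raised signal (0.64, adjusted p = 0.123) and held it in 18 of 28 alternatives. Bach1, the repressor of Hmox1, fell by 0.56 ± 0.17 on the log2 scale (adjusted p = 0.0470), from 1.12 ± 0.29 in SiC to 0.56 ± 0.25 in Si2AK. Its call held in 10 of 28 alternatives. Keap1, the sensor, differed from SiC by 0.06 ± 0.08 in Si2AK and by -0.13 ± 0.08 in Si1AK, neither called (adjusted p = 0.784 and 0.383).

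In the glutathione list, 2 of 11 tested genes rose in Si1AK against SiC and 3 of 11 in Si2AK against SiC, beside 4.41% and 13.2% of all genes called. Ggct, which splits gamma-glutamyl peptides, rose by 1.06 ± 0.16 in Si1AK (adjusted p = 0.00342) and by 0.67 ± 0.17 in Si2AK (adjusted p = 0.0217). Without both arrays of raised signal the Si2AK difference of Ggct was 0.67 and not called (adjusted p = 0.0844). Gpx8, a peroxidase of the endoplasmic reticulum, rose in Si1AK by 0.51 ± 0.12 (adjusted p = 0.0346), a call lost without both arrays (0.39, adjusted p = 0.0732) and held in 12 of 28 alternatives. Chac1, an enzyme that breaks down glutathione rather than making it, rose by 1.11 ± 0.20 in Si2AK (adjusted p = 0.00395), and Slc3a2, the shared heavy chain of amino acid exchangers, by 0.78 ± 0.15 (adjusted p = 0.00625). Slc7a11, the cystine exchanger and a known NRF2 target, differed by -0.58 ± 0.30 in Si1AK and by 0.05 ± 0.32 in Si2AK, neither called (adjusted p = 0.315 and 0.963).

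In the thioredoxin list, 1 of 10 rose in Si1AK against SiC and 2 of 10 in Si2AK against SiC, beside the same 4.41% and 13.2%. Txnip, which binds and inhibits thioredoxin, rose by 1.15 ± 0.19 in Si1AK (adjusted p = 0.00697), from 0.15 ± 0.40 in SiC (n = 3) to 1.30 ± 0.04 (n = 4), and was lower in Si2AK than in Si1AK by 1.05 on the log2 scale (a difference of -1.05 ± 0.19, adjusted p = 0.00417). Sesn2, a stress-induced sestrin, rose by 1.01 ± 0.14 in Si2AK (adjusted p = 0.000935) and Prdx5, a peroxiredoxin, by 0.46 ± 0.09 (adjusted p = 0.00766). Without both arrays of raised signal Prdx5 was 0.32 higher and not called (adjusted p = 0.0526).

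In the list of NADPH supply, 2 of 7 rose in Si2AK against SiC and 0 were called in Si1AK, beside 13.2% and 4.41% of all genes. Mthfd2, a mitochondrial folate enzyme, rose by 0.96 ± 0.14 (adjusted p = 0.00139) and Pgd, of the pentose phosphate pathway, by 0.44 ± 0.12 (adjusted p = 0.0302), held in 20 of 28 alternatives. Among quinone, carbonyl and xenobiotic enzymes, 1 of 11 rose in Si1AK, the epoxide hydrolase Ephx1 (0.48 ± 0.09, adjusted p = 0.0129), and 2 of 11 fell in Si2AK. Ugdh, which makes UDP-glucuronate, fell by 0.88 ± 0.14 on the log2 scale in Si2AK (adjusted p = 0.00252), and Akr1c13, an aldo-keto reductase, fell by 0.71 ± 0.12 (adjusted p = 0.00262). Akr1c13 was 2.69 ± 0.06 in Si1AK (n = 4) and 1.68 ± 0.19 in Si2AK (n = 3), a difference of -1.01 ± 0.11 (adjusted p = 0.000148).

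None of 7 haem and iron genes and none of 4 efflux pumps was called by limma in either siRNA against SiC. Abcb6, a porphyrin transporter, was higher in Si2AK than in Si1AK by 0.43 ± 0.11 (adjusted p = 0.0203), a call lost without both arrays of raised signal (0.35, adjusted p = 0.0626). Of the 7 genes in the remaining list 2 rose in Si2AK against SiC. Trib3, a pseudokinase, rose by 1.57 ± 0.29 (adjusted p = 0.00468) and stood 2.35 ± 0.27 above Si1AK (adjusted p = 0.000218), and Osgin1, an oxidative stress gene, rose by 0.58 ± 0.15 (adjusted p = 0.0236). Osgin1 was 0.56 higher without both arrays of raised signal and was then not called (adjusted p = 0.0798). Chac1 and Trib3 were called lower in Si1AK against SiC without those arrays (-0.74 and -1.11, adjusted p = 0.0373 and 0.0287). Chac1, Sesn2, Slc3a2, Mthfd2 and Trib3 are known targets of ATF4, the factor of the integrated stress response, as well as members of these lists. They are named from the called genes alone, and whether ATF4 took part was not tested.

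**Figure D5:**
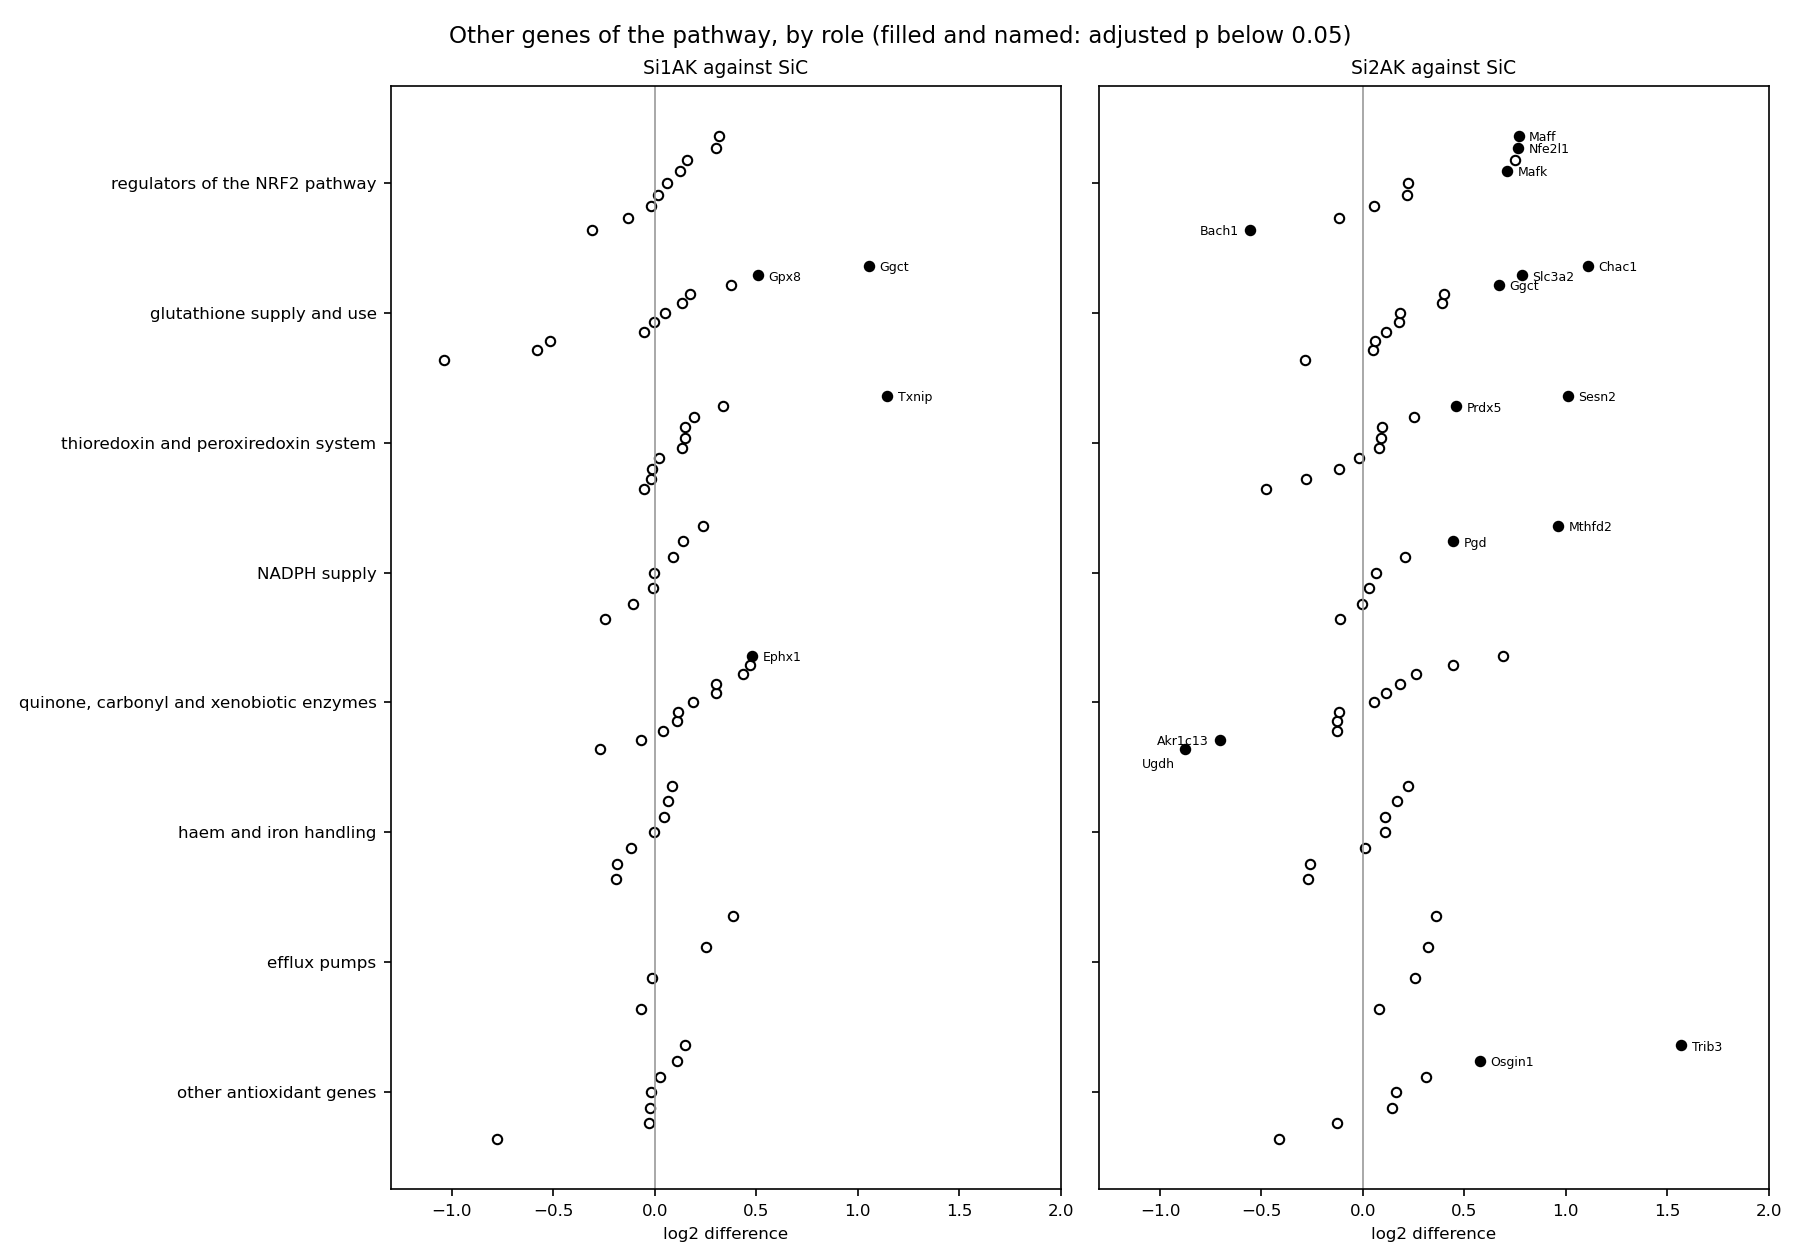
Log2 difference of the 66 other pathway genes in Si1AK against SiC (left) and Si2AK against SiC (right), 1 point per gene, grouped by role, with filled and named points for an adjusted p below 0.05. The left panel holds 4 called genes, all higher, and the right panel 12 higher and 3 lower.

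The genes most like 3 of the members in pattern were sought among 12920 named genes, by Pearson r over the 12 arrays other than the 2 of raised signal. The arrays share slides and groups, so r is a description. For Nqo1 these were Igf1r (0.94), Arhgef16 (0.93) and Ftsj1 (0.88), and r over all arrays was 0.97, 0.60 and 0.13. The Nqo1 spot left out on NT replicate 2 makes these 11 and 13 arrays in place of 12 and 14. For Nfe2l2 they included Tmem42 (0.96) and Rad23b (0.92), with 0.84 and 0.95 over all 14. For Hmox1 they were Tnpo2, Ptdss2 and Swi5 (0.97, 0.97 and 0.95), but without NT replicate 4 these had r of 0.81, 0.80 and 0.61 and the first places went to Plk3, Trp53inp2 and Pde4dip (0.99, 0.99 and 0.98 over 11 arrays). The genes ranked first for Hmox1 thus changed with that array.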

How the data were processed

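Total RNA of 14 samples was labelled with Cy3 and read on 1-colour Agilent mouse arrays. Per the file headers, Feature Extraction made the processed signal, an intensity after additive spatial and multiplicative detrending within each array, with surrogate values for dim spots and no scaling between arrays, and placed probes on mm9. The deposited files also hold raw mean and background intensities and marks of 0 or 1 that say whether a spot was saturated, outlying or well above background, a unit other than intensity. A value table that the authors deposited is on the log2 scale and served as an alternative. Its columns follow log2 of the raw mean signal (r of 0.991 or more across spots, which are not independent), each with a median of 6.51, so scale and direction are borne out and the background step stays unknown. The tool limma is named, without a version, per the submitters' processing notes.

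Here each array's processed signal was put on the log2 scale and its own 75th percentile was subtracted. Marked spots were left out and spots of a probe averaged. A probe stayed in when all arrays of some group had it well above background (30326 probes), and each gene was represented by its brightest probe on average (21374 genes). Names came from RefSeq accessions (GRCm38.p6) for 27656 probes, otherwise from the array. All arrays entered 1 fit in limma 3.58.1 under R 4.3.3 by lmFit with eBayes, leaving 10 residual degrees of freedom, with Benjamini-Hochberg adjustment over all genes, and calls needed an adjusted p below 0.05. Errors are moderated SE for differences and SD for means. The code was tested on simulated data. The number of arrays limits the precision. The highest correlation between any 2 arrays was 0.997, and no array was a copy of another.

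The 10 genes, the 70 other pathway genes and the markers were chosen with earlier results of these data known. Named genes are all 10 members with every probe, up to 4 called genes with the largest differences per role list, and for Nqo1, Hmox1 and Nfe2l2 the 3 genes with the highest r; others are said to be chosen later or are named as the pathway's sensor (Keap1) and exchanger (Slc7a11), after their values were seen. Alternatives were replicate and slide as blocks, single slides, only the groups compared, normexp background (offset 50), quantile normalization, the authors' table, other filters and probe rules, and leaving out arrays. Replicate numbers are shared between groups in the labels. The deviations of same-numbered arrays from their group means correlated at between -0.68 and 0.72, and all pairs exceeded 0.1 in 1 comparison only, Si1AK against NT (0.12 to 0.24). There the numbers were taken to pair the arrays, though no label states a pairing. Same-numbered NT and Si1AK arrays also lay on the same slide, so pairing and slide cannot be told apart. With the replicate block 0 of the 10 genes were called by limma in that comparison, as without it.

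Markers of other cells that were well above background on all arrays were 3 of 7 for fibroblasts, 4 of 7 for leukocytes, 3 of 5 for endothelium and 2 of 5 for melanocytes. Exon and transcript annotation of mm9 was not used here. One gene that the rule on likeness to Nfe2l2 names is not reported here.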

Additional observations from a re-analysis of the deposited data

Results flagged for a closer look

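Over the 25 sets of 4 arrays that a probe of the 10 genes has in a group (groups of 3 were not examined), an array stood apart from the others of its group in 5, where chance gives about 1 in 20. Hmox1 on NT replicate 4 was -1.22 on probe A_51_P263965 and -2.70 on probe A_55_P2029687, far below the other 3 NT arrays on both. Me1 on probe A_55_P2009952 was 3.35 on the same array, the lowest of its group, and 3.68 on Si1AK replicate 3, the lowest of the Si1AK arrays. Cbr3 on Si1AK replicate 2 was 2.21, above the other 3 arrays of Si1AK.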

How the results depend on the processing

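Of 28 alternatives, 0 turned the sign of a called difference of the 10 genes, and 73 of 1422 uncalled values changed sign. Me1 stayed called against SiC in 25 and against NT in 26, Txnrd1 in 23 against Si1AK and 26 against NT, and Cbr3 between the siRNAs in 26. The Cbr3 call in Si1AK against SiC held in 5, Gclm in Si2AK against SiC in 8, and Hmox1 in Si2AK against NT in 12. Other Hmox1 differences, not called with all arrays, were called in few alternatives. Si2AK against SiC was called in 3, Si1AK against SiC in 2, Si2AK against Si1AK in 4 and Si1AK against NT in 2.

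Of the 10 genes, 0 were called in Si1AK against SiC with the replicate block (Cbr3 adjusted p = 0.0712), slide 1 alone, slide 2 alone, only the groups compared, normexp, no filter, every probe its own row or without both arrays of raised signal. In Si2AK against SiC 1 was called with slide 1 alone, normexp, no filter, every probe, or without both arrays, and 0 with slide 2 alone or only the groups compared. In Si2AK against Si1AK 1 was called with slide 1 alone or no filter, 0 with slide 2 alone and 4 without NT replicate 4 and both raised arrays. In Si1AK against NT 1 was called with only the groups compared, normexp, the filter on all arrays or the mean of the probes, and 2 with quantile normalization, the authors' table, or without both raised arrays, with or without NT replicate 4. In Si2AK against NT 1 was called with slide 1 alone and 0 with slide 2 alone, and Hmox1 lost its call with the replicate block (adjusted p = 0.0814). Leaving out 1 array gave 0 to 1 in Si1AK against SiC, 1 to 3 in Si2AK against SiC, 1 to 3 in Si2AK against Si1AK and 0 to 2 in Si1AK against NT.

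Of the 66 other pathway genes, Si1AK against SiC called 7 with slide as a block, 0 with slide 1 alone or slide 2 alone, 1 with only the groups compared and 2 with no filter. Si2AK against SiC called 6 with slide 1 alone and 0 with slide 2 alone or only the groups compared. Si2AK against Si1AK called 22 with slide as a block, 7 with slide 1 alone, 3 with slide 2 alone, 23 with quantile normalization, 24 with the authors' table and up to 23 on leaving out 1 array (SiC replicate 1). Si1AK against NT called 0 with either slide alone, 2 with no filter, 11 without both raised arrays, 8 without these and NT replicate 4, and 2 to 10 on leaving out 1 array. Si2AK against NT called 6 with slide 1 alone and 2 with slide 2 alone. Counts over all genes moved as well. Si1AK against SiC went from 942 to 1383 with slide as a block, 252 with only the groups compared and 397 with no filter. Si2AK against SiC went from 2813 to 90 with only the groups compared. Si2AK against Si1AK went from 2660 to 3303 with slide as a block, 3078 with quantile normalization and 3841 without SiC replicate 1. Si1AK against NT went from 1507 to 719 with no filter and 3124 without both raised arrays. Single slides leave 1 or 2 arrays a group, and the cause of the other shifts was not tested. With the longer promoter core 1 gene matched.

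Quantile normalization moved the median difference of all genes from -0.06 to 0.06 in Si1AK against SiC and from 0.10 to -0.04 in Si2AK against Si1AK. Leaving out 1 array moved the count over all genes by more than 1.5 times in Si2AK against Si1AK (2660 to 1751 without Si2AK replicate 2) and in Si1AK against NT (1507 to 968 without NT replicate 2, 811, 840 and 965 without Si1AK replicates 1, 2 and 3, and 2561 without SiC replicate 1). The number of arrays limits all tests.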

Other observations

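NT replicate 4 differed from the mean of NT replicates 1 to 3 by more than 1 on the log2 scale for 245 of 13036 genes and by more than 2 for 23. Hmox1 ranked 3rd by size, at -4.09, and the genes ahead of it, Syt10 and A530072M11Rik, spread over 4.61 and 12.1 among the other NT arrays, where Hmox1 spread over 0.010. The other 9 pathway members differed on that array by between -0.26 (Nfe2l2) and 0.36 (Gclc). These genes were chosen after their values were seen.

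Against NT alone, further pathway genes were called in Si2AK, named here after their values were seen. Sqstm1, the autophagy receptor that draws KEAP1 to degradation, was higher by 0.98 ± 0.23 (limma, adjusted p = 0.0130), but its difference from SiC was 0.75 ± 0.24 (adjusted p = 0.0677). Txnrd2, the mitochondrial thioredoxin reductase, was lower (-0.72 ± 0.14, adjusted p = 0.00560), as was Blvra, the biliverdin reductase that acts after haem oxygenase (-0.43 ± 0.07, adjusted p = 0.00251). Against SiC they differed by -0.48 and -0.26 and were not called (adjusted p = 0.0631 and 0.0508).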
